A study of Mus musculus with 4 samples.

Results

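Livers of fasted and re-fed mice were compared for 5 genes: Angptl4, Angptl8 and Angptl6, which encode secreted angiopoietin-like proteins, and Lpl and Lipc, which encode lipases of plasma triglyceride handling. The members were taken by symbol from the array's own annotation, except Angptl8, which the files list as Gm6484 and which was taken by its probe. They account for 6 of the 39429 probes on the array. The set was chosen by the fasted over re-fed ratios of these same arrays, in which Angptl4 and Angptl8 were known to differ, so that those ratios are given as a description with no test. All 6 probes were well above background in all 4 fasted and all 4 re-fed livers, so that none of the 5 genes was lost to the filter on dim probes, which 19740 probes passed.

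All mice were male C57BL/6J animals aged 8 to 12 weeks with no transgene or drug, and both groups went without food for 24 h. The re-fed group was then given food for 2 h before the liver was taken, so that no group had been fed without a preceding fast. RNA of 4 fasted and 4 re-fed individual livers was set against each other on 4 two-colour arrays, on which the dyes Cy5 (red) and Cy3 (green) compete for the same spots. Each array held a randomly paired fasted and re-fed liver and is called a replicate, with the fasted liver in Cy5 on replicates 1 and 2 and in Cy3 on replicates 3 and 4. Every ratio is log2 of fasted over re-fed liver, and every level is a log2 normalized intensity, which can be compared between livers for one probe but not between probes.

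Lipoprotein lipase, the product of Lpl, splits triglycerides of circulating lipoproteins at the capillary wall, so that the tissue can take up the fatty acids. Some of the secreted angiopoietin-like proteins inhibit it and so affect in which tissue this happens. Angptl4 is known as the fasting-induced member, which inactivates lipoprotein lipase in adipose tissue and is a target of the fatty acid receptor PPARA. Angptl8 is known as the member induced by feeding and insulin, and acts on the lipase of heart and skeletal muscle. Angptl6 is a liver-secreted relative linked to energy expenditure rather than to lipases. Lipc encodes hepatic lipase, which hepatocytes secrete and which trims remnant particles and high-density lipoproteins.

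The measurement rests on 60-base oligonucleotides, each present once on the array. The stretches below show what was read for the genes that the results turn on, in part for Angptl4, Angptl8 and the distal Lpl probe, and whole for the other Lpl probe and for Lipc. Capitals mark AATAAA, the letters of the canonical polyadenylation signal, wherever they occur on the printed strand, which is in the Angptl8 and Lpl 1340 stretches. The match is of letters only and does not place a probe within its transcript. The 2 Lpl probes start at bases 3484 and 1340 of the same RefSeq transcript and are named by these positions.
Angptl4, chr17:33911880-33911939, minus strand, bases 1 to 30 of the probe: atggtgctgttgtaggtgctgtggatgcac
Angptl8, chr9:21641729-21641788, plus strand, bases 27 to 56 of the probe: cacacaccccacAATAAAagagaacagagg
Lpl 3484, chr8:71430267-71430326, plus strand, bases 1 to 30 of the probe: gaacaccaacccacatgcaaaaccccacaa
Lpl 1340, chr8:71425050-71425109, plus strand, all 60 bases: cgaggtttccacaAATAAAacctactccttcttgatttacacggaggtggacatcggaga
Lipc, chr9:70660699-70664375, minus strand, all 60 bases: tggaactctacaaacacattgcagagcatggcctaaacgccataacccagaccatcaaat

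Positions follow the array files, which use the mm9 build. The Lipc probe covers 3677 bases of genome with 60 bases of sequence and therefore crosses a splice junction. The Angptl6 probe lies at 20678326 to 20678385 on the minus strand of chromosome 9. The Lpl 1340 probe carries a second, predicted RefSeq transcript in its annotation besides that of Lpl.

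Cell type markers were read for the same livers. All 8 hepatocyte markers passed the filter. Of these 8, only Tat, which starts tyrosine breakdown, was called between conditions, at a change of 1.5-fold or more and a limma p below 0.10 after adjustment. Its log2 ratio was 0.84 ± 0.46 (SD, n = 4; adjusted p of 0.0455 in limma), higher in the fasted liver on 4 of 4 arrays, and it lost the call without replicate 1, 2 or 3, at 0.70 to 0.91. The other 7 lay between -0.14 and 0.37 and were not called. Of 8 adipocyte markers only Cfd and Fabp4 passed it, with a summed linear intensity of 669 to 968 in fasted and 644 to 998 in re-fed livers, while the defining markers Adipoq, Plin1, Lep and Retn did not pass. None of 4 skeletal muscle markers passed, and the 7 endothelial and 7 stellate cell markers all passed without a call between conditions. The endothelial markers summed to 9423 to 10437 in fasted and 8028 to 9237 in re-fed livers, without overlap. The stellate cell sums, 12194 to 14507 and 10508 to 15736, overlapped. The re-fed liver of replicate 3 stood apart, because its 2 measured markers of pancreatic acinar cells, Clps and Ctrb1, summed to 16317 against 320 to 433 in the other re-fed livers. It also gave the highest adipocyte sum, 998, beside up to 968 in other livers. Adipoq and a Retn probe were well above background in that liver alone, Lep only in the re-fed liver of replicate 4, and Plin1 in none. Values that leave out replicate 3 are therefore given below for each member. In whole liver, fewer cells of a type and less RNA per cell cannot be told apart.

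Angptl4 was higher in the fasted liver on every array. Its level in the fasted livers of replicates 1 to 4 was 15.09, 15.04, 14.56 and 14.68, and in the re-fed livers it was 12.16, 11.38, 12.01 and 12.01. The groups did not overlap, and the lowest fasted liver lay 2.41 above the highest re-fed liver. The raw median intensity of the spot, before background correction, ran from 20727 to 34456.5 in fasted livers and from 2460 to 5752.5 in re-fed livers, at least 102.5 times the local background in every channel.

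The Angptl4 log2 ratio was 2.93, 3.66, 2.55 and 2.67 on replicates 1 to 4, with a mean of 2.95 ± 0.50 (SD, n = 4), or 7.74-fold. Replicate 2 gave the largest ratio and held the re-fed liver with the lowest level. The mean ranked number 4 among rises over the 19740 kept probes. Without replicate 3 it was 3.09, and leaving out any other single array gave 2.72 to 3.05.

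Angptl8 showed the opposite order. Its level in the fasted livers was 10.49, 11.67, 12.75 and 12.21, against 13.78, 15.31, 15.10 and 15.07 in the re-fed livers. These groups did not overlap either, although the gap between the highest fasted and the lowest re-fed liver was narrower, at 1.03. The spread among fasted livers was wide, at 2.26 from the lowest to the highest, compared with 0.53 for Angptl4. The fasted livers in Cy5, at 10.49 and 11.67, were the lower ones, and levels are not corrected for a dye effect of the probe. The liver pair of replicate 1 was the lowest of its group on both sides. Raw medians of the Angptl8 spot lay between 820 and 7563 in fasted livers and between 10908 and 48366 in re-fed livers.

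The Angptl8 log2 ratio was -3.28, -3.63, -2.35 and -2.86, with a mean of -3.03 ± 0.55 (SD, n = 4). This is 8.16-fold lower in fasted liver and ranked number 2 among falls. The low livers of replicate 1 sat on the same array, and the ratio of that array was within the range of the others. The mean was -3.26 without replicate 3 and lay between -3.09 and -2.83 when another array was left out.

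Setting the 2 inhibitors against each other within an array, the Angptl4 ratio exceeded the Angptl8 ratio by 6.21, 7.29, 4.90 and 5.52 on replicates 1 to 4. The mean difference was 5.98 ± 1.03 (SD, n = 4). Both genes had their largest change on replicate 2 and their smallest on replicate 3. The order of the arrays was thus the same for the gene that was higher and for the gene that was lower. It also divided by dye, since both changes were larger on replicates 1 and 2, with the fasted liver in Cy5, than on replicates 3 and 4. The part of the dye in this order was not tested.

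**Figure D1:**
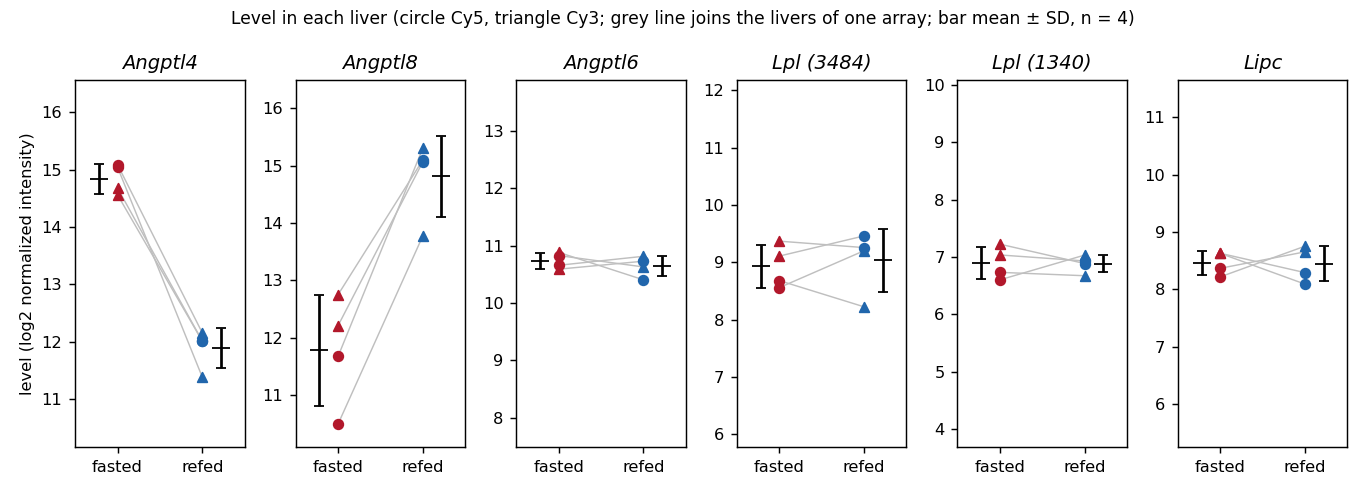
Log2 normalized intensity of each of the 6 probes in every fasted (red) and re-fed (blue) liver, with the dye as the symbol, grey lines joining the livers of an array and bars for the mean ± SD (n = 4); all panels span the same number of log2 units. The fasted and re-fed livers separate for Angptl4 and Angptl8 and overlap for Angptl6, both Lpl probes and Lipc.

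Angptl6, the third angiopoietin-like member, differed little between the conditions and in no single direction. Its level was 10.83, 10.66, 10.59 and 10.88 in fasted livers and 10.63, 10.81, 10.73 and 10.40 in re-fed livers, and the groups overlapped. The log2 ratio was 0.20, -0.16, -0.14 and 0.48, with a mean of 0.095 ± 0.30 (SD, n = 4). It was positive on 2 of 4 arrays, and the mean was 0.17 without replicate 3. Among all kept probes, 44.6% had a smaller mean change in size.

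The relatives Angptl1, Angptl2 and Angptl7 were below the filter. Angptl2 was well above background in 2 fasted and 3 re-fed livers, Angptl7 in 1 of each and Angptl1 in none. Dock6, the gene whose annotated span overlaps that of Angptl8, had a log2 ratio of -0.21 ± 0.26 (SD, n = 4) and did not pass (adjusted p of 0.361 in limma).

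The 2 Lpl probes read the same transcript at different positions. Lpl 3484 had levels of 8.68, 8.56, 9.37 and 9.11 in fasted livers and 8.22, 9.20, 9.26 and 9.46 in re-fed livers. Lpl 1340 had levels of 6.73, 6.60, 7.22 and 7.03 in fasted livers and 6.67, 7.03, 6.88 and 6.93 in re-fed livers. For both probes the groups overlapped. Lpl 1340 was read close to background, with raw medians of 50.5 to 155, or 2.10 to 5.66 times the local background.

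The log2 ratio of Lpl 3484 was 0.46, -0.64, 0.11 and -0.35, with a mean of -0.11 ± 0.49 (SD, n = 4). That of Lpl 1340 was 0.059, -0.43, 0.34 and 0.10, with a mean of 0.017 ± 0.32 (SD, n = 4). The probes had the same sign on replicates 1 to 3 and opposite signs on replicate 4. The ratio of Lpl 3484 exceeded that of Lpl 1340 by 0.40 on replicate 1 and was lower by 0.21, 0.23 and 0.46 on the others (-0.21, -0.23 and -0.46 as signed differences). Without replicate 3 the means were -0.18 and -0.089.

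In liver, macrophages are a known source of lipoprotein lipase, and macrophage markers varied from array to array. The median log2 ratio of the 6 of 8 Kupffer cell and macrophage markers that passed the filter was 0.46, -0.24, 0.35 and -0.15 on replicates 1 to 4, with the sign of Lpl 3484 each time but of Lpl 1340 on replicates 1 to 3 only, since Lpl 1340 was at 0.10 on replicate 4. Single markers differed in this: Marco, a scavenger receptor of macrophages, had 0.48, -0.63, 0.92 and -0.49, whereas Clec4f, a Kupffer cell lectin, was above 0 on all 4 arrays, at 0.32, 0.0080, 0.28 and 0.050. The summed linear intensity of the 6 markers was 10305 to 13552 in fasted and 7185 to 12222 in re-fed livers, and none of the 6 passed the test between conditions. Cd68 and Cd163 were the markers below the filter. Red blood cell markers varied between arrays too. The median log2 ratio of Hba-a1 and Alas2, the 2 that passed the filter, was 1.42, -0.27, 1.80 and 0.19, with the sign of Lpl 1340 on all 4 arrays and of Lpl 3484 on replicates 1 to 3 but not on replicate 4. Their summed intensity was 61604 and 89459 in the fasted livers of replicates 1 and 3 and 12473 to 27198 in the other 6 livers. The part of either cell type in the Lpl ratios was not tested.

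Lipc differed between arrays in another way. Its level was 8.22, 8.37, 8.63 and 8.63 in fasted livers and 8.75, 8.65, 8.29 and 8.09 in re-fed livers. The groups overlapped, and in both the livers labelled with Cy3 were brighter than those labelled with Cy5. The log2 ratio was -0.53 and -0.29 where the fasted liver carried Cy5, and 0.34 and 0.54 where it carried Cy3. The mean over both orientations was 0.013 ± 0.51 (SD, n = 4), and -0.095 without replicate 3. Only 6.66% of kept probes had a smaller mean change.

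**Figure D2:**
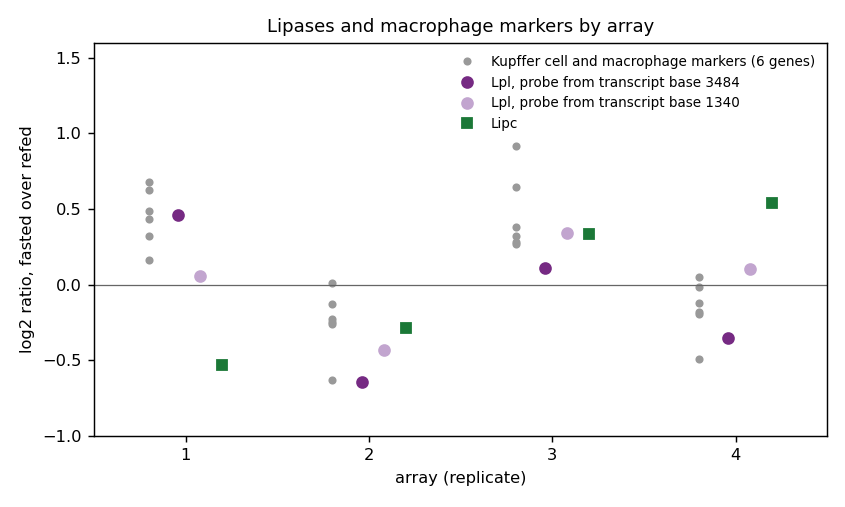
Log2 ratio of fasted over re-fed liver on each array for both Lpl probes (circles), Lipc (squares) and the 6 measured macrophage markers (grey points), offset sideways for clarity. Lpl 3484 has the sign of the median macrophage marker on all 4 arrays and Lpl 1340 on replicates 1 to 3, while Lipc is below 0 on replicates 1 and 2 and above 0 on replicates 3 and 4.

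The dye swap allowed the dye itself to be tested, as a term that is independent of the ratio by which the genes were chosen. The dye effect is the log2 excess of Cy5 over Cy3 whichever liver carries it. It passed an adjusted p of 0.10 in limma for 2 of the 6 probes, against a background of 14.7% of all kept probes. For Lipc the effect was -0.42 with an SE of 0.072 (adjusted p of 0.0397 in limma), and the Cy5 signal was the lower one on 4 of 4 arrays, at -0.53, -0.29, -0.34 and -0.54. For Angptl8 it was -0.43 with an SE of 0.105 (adjusted p of 0.0698 in limma). For Angptl4 it was 0.34 and did not pass (adjusted p of 0.139 in limma), nor did Angptl6, Lpl 3484 or Lpl 1340, with effects of -0.074, 0.013 and -0.20.

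Both dye calls depended on the processing. Agilent's processed signals, median centring in place of loess, and the background fit on all spots each left 0 of the 6 probes past the threshold. The effect kept its sign for Lipc and for Angptl8 in all 3, at -0.22 to -0.45 for Lipc and -0.39 to -0.49 for Angptl8, with adjusted p of 0.102 to 0.217 in limma. Leaving out replicate 3 or replicate 4 also left 0 probes past it, and leaving out replicate 2 left 1, while leaving out replicate 1 gave 3, with Angptl4 among them at 0.53 (adjusted p of 0.0504 in limma).

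Within each dye orientation the large differences were present on both sides. The Angptl4 log2 ratio averaged 3.30 with the fasted liver in Cy5 and 2.61 with it in Cy3. The Angptl8 log2 ratio averaged -3.46 and -2.60 in the same order. For Lipc the within-orientation means were -0.41 and 0.44, of opposite sign. Those of Lpl 1340 were -0.19 and 0.22, and those of Lpl 3484 were -0.093 and -0.12. For Angptl6 they were 0.021 and 0.17.

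**Figure D3:**
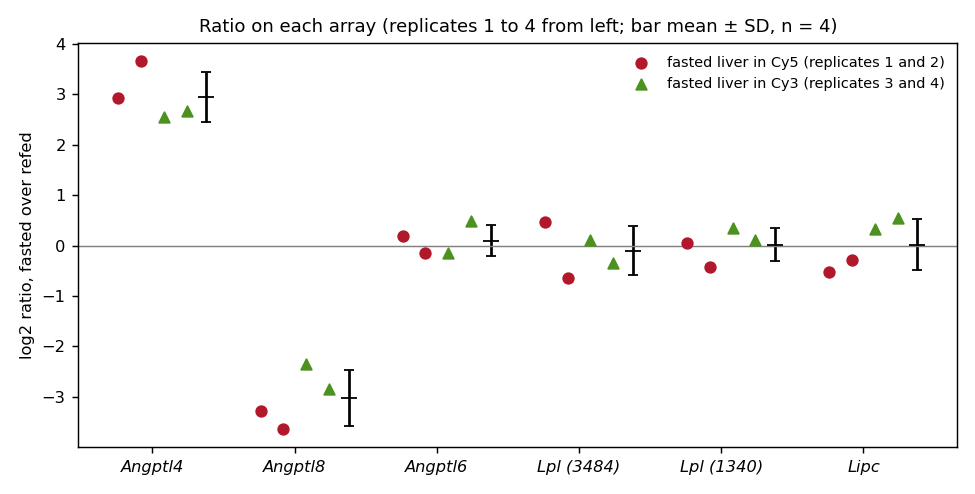
Log2 ratio of fasted over re-fed liver for each probe on replicates 1 to 4, with the dye of the fasted liver as colour and symbol and a bar for the mean ± SD (n = 4). Angptl4 lies between 2.55 and 3.66 and Angptl8 between -3.63 and -2.35, both with the larger changes where the fasted liver is in Cy5. They keep their sign in both orientations, whereas the Lipc values change sign with orientation.

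The rule by which genes outside the set were called, 1.5-fold and an adjusted p below 0.10 in limma, is no test of the members, which were chosen by the same ratios. Angptl4 and Angptl8 are the 2 of the 6 member probes counted among the 3.77% of the 19740 kept probes that met it, 1.7% as higher and 2.07% as lower in fasted liver. Levels that did not overlap between the groups were found for the same 2 probes and for 13.6% of kept probes, and a single sign on all arrays, which both also had, for 29.6%. These shares are printed for scale only, since the contrast that yields them also chose the genes. Of the kept probes, 99.97% had a smaller mean change than Angptl4, and likewise for Angptl8. For Lpl the shares were 48.7% (Lpl 3484) and 9.08% (Lpl 1340).

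**Figure D4:**
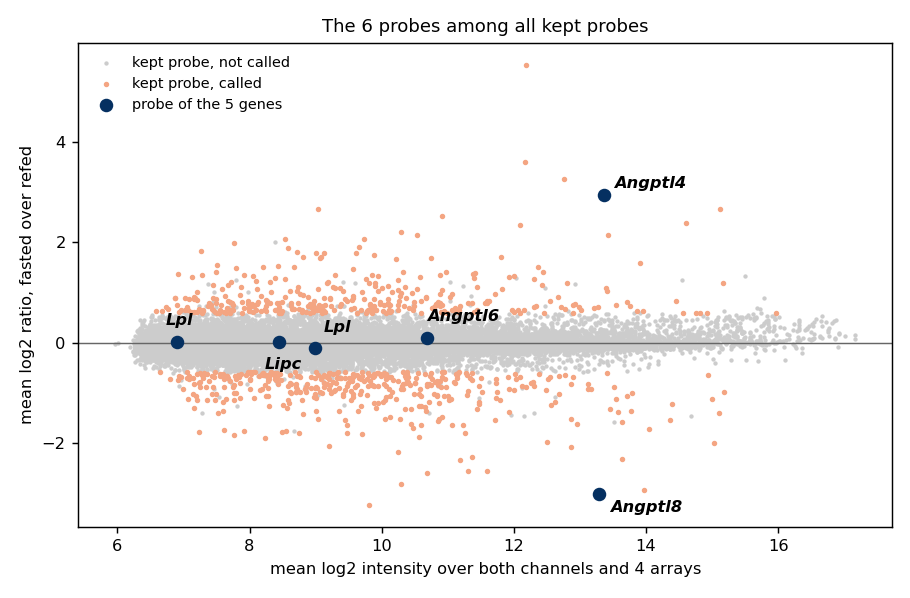
Mean log2 ratio of fasted over re-fed liver against mean log2 intensity over both channels and 4 arrays, for all 19740 kept probes, with called probes in orange and the 6 member probes as large dark points. Angptl4 and Angptl8 lie at the upper and lower edge among bright probes, and the other 4 member probes lie within the uncalled band around 0.

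The genes whose ratios lay closest to those of the 2 inhibitors were found by Euclidean distance over the 4 arrays, among 13040 named genes with a kept probe. For Angptl4 the nearest were Pck1 and Lpin1, at distances of 0.767 and 0.935 log2 units. Pck1 encodes a rate-limiting enzyme of gluconeogenesis, and Lpin1 a phosphatidate phosphatase and transcriptional co-activator. G6pc, Gadd45g and Mt2 followed at 1.33 to 1.57. Pck1 shared with Angptl4 its largest value on replicate 2, at 3.72, and its smallest on replicate 3, at 2.27.

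For Angptl8 the nearest was Sdf2l1, a component of a chaperone complex of the endoplasmic reticulum, at 1.21. Derl3, Creld2 and Syvn1, all genes of the endoplasmic reticulum, were at 1.65 to 1.88. The nearest gene of Angptl8 was thus farther away than the nearest 2 of Angptl4.

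The rest of the pathway was read from 10 lists with 84 genes besides the members, of which 72 had a kept probe, each gene by its brightest. Of these, 10 were called higher and 5 lower in fasted liver, or 20.8%, against 3.94% of 16071 genes (1.82% higher and 2.12% lower). The median log2 ratio of the 72 genes was 0.10, beside 0.0032 over all genes. Leaving out each array in turn gave 4 to 13 genes higher and 3 to 5 lower, and the background fit on all spots gave 1 and 0. The lists were drawn up with results of these arrays known.

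Genes that fold, carry and cut lipoprotein lipase mostly did not pass the test. Of 10 measured, Sel1l fell, with a log2 ratio of -1.18 ± 0.22 (SD, n = 4; adjusted p of 0.00504 in limma). Sel1l is an adaptor of protein degradation in the endoplasmic reticulum that lipoprotein lipase needs to leave it, and a partner of Syvn1. Not passing were Lmf1, the lipase maturation factor, at -0.048, Gpihbp1, its capillary anchor, at 0.21, and Furin, a protease that cleaves Angptl4, at 0.26. In the lipase family itself Pla1a was at 0.057 and not called. Lipg, Liph, Lipi and the 3 pancreatic lipase genes were below the filter, and Pnlip and Pnliprp1 were well above background only in the re-fed liver of replicate 3.

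Of 6 apolipoproteins, Apoa5, a plasma activator of lipoprotein lipase, rose by 1.10 ± 0.36 (SD, n = 4; adjusted p of 0.0144 in limma). The activator Apoc2 and the inhibitors Apoc1 and Apoc3 were at 0.16, 0.083 and 0.077 and did not pass. Of the uptake receptors, Lsr, the lipolysis-stimulated lipoprotein receptor, was at -0.36 and Scarb1, the receptor for high-density lipoproteins, at 0.34, both under the 1.5-fold limit. Of 11 intracellular lipases and cofactors only Pnpla2, the adipose triglyceride lipase, was called, at 0.61 ± 0.36 (SD, n = 4; adjusted p of 0.0624 in limma). It lost the call when replicate 1, 2 or 3 was left out, at 0.47 to 0.63. G0s2, the inhibitor of that enzyme, divided by dye as Lipc did, with log2 ratios of -1.21, -1.18, 0.76 and 1.05 and a dye effect of -1.05 (adjusted p of 0.00333 in limma).

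Among the 11 known regulators of Angptl4 and Angptl8, Srebf1, a lipogenic factor downstream of insulin, was called at -0.93 ± 0.44 (SD, n = 4; adjusted p of 0.0315 in limma), but not without replicate 2, 3 or 4 (-0.93 to -0.79). Ppara at 0.51 and Foxo1 at 0.62 did not pass, with adjusted p of 0.178 and 0.116 in limma. Dimmer Ppara probes were at 0.54 and 0.60 and not called, with adjusted p of 0.0814 and 0.119 in limma. The first of these was under the 1.5-fold limit only. A dimmer Foxo1 probe was at 0.65 and not called (adjusted p of 0.117 in limma). PPARA targets, the group to which Angptl4 belongs, had 6 of 14 genes called higher and none lower, with a median of 0.61 and a positive mean in all 14. Among the called genes were Cpt1a, which admits fatty acids to mitochondria, Fgf21, a fasting hormone, Plin2, a lipid droplet coat protein, and Pdk4, at 0.63 to 1.49 with adjusted p of 0.0197 to 0.0843 in limma. The largest was that of Pdk4, a kinase that blocks pyruvate oxidation, at 1.49 ± 1.13 (SD, n = 4), and the Angptl4 ratio exceeded it on 3 of 4 arrays but not on replicate 4, where Pdk4 was at 2.86. The Pdk4 ratio also divided by dye orientation, at 0.53 and 0.60 with the fasted liver in Cy5 and 1.98 and 2.86 with it in Cy3, with a dye effect of -0.93 (adjusted p of 0.0336 in limma). The count of called PPARA targets was 10 without replicate 1, and 1, 2 and 3 without replicates 2, 3 and 4.

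Insulin and SREBP-1c targets, with which Angptl8 is usually grouped, had 2 of 11 genes called higher and 2 lower, with a median of -0.23. Thrsp, a lipogenic cofactor, was at -1.20 ± 0.69 (SD, n = 4; adjusted p of 0.045 in limma) and lost its call without replicate 3 or 4. The genes called higher were Insig2, a brake on SREBP processing that insulin represses, at 1.19, and Acacb, the acetyl-CoA carboxylase that restrains fatty acid oxidation, at 0.68, with adjusted p of 0.0043 and 0.0348 in limma. Acacb was not called without replicate 1 or 3, and a dimmer Acacb probe was at 0.25 and not called. Fasn, the fatty acid synthase, and Elovl6, a fatty acid elongase, were at -0.52 and -0.55, under the 1.5-fold limit.

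**Figure D5:**
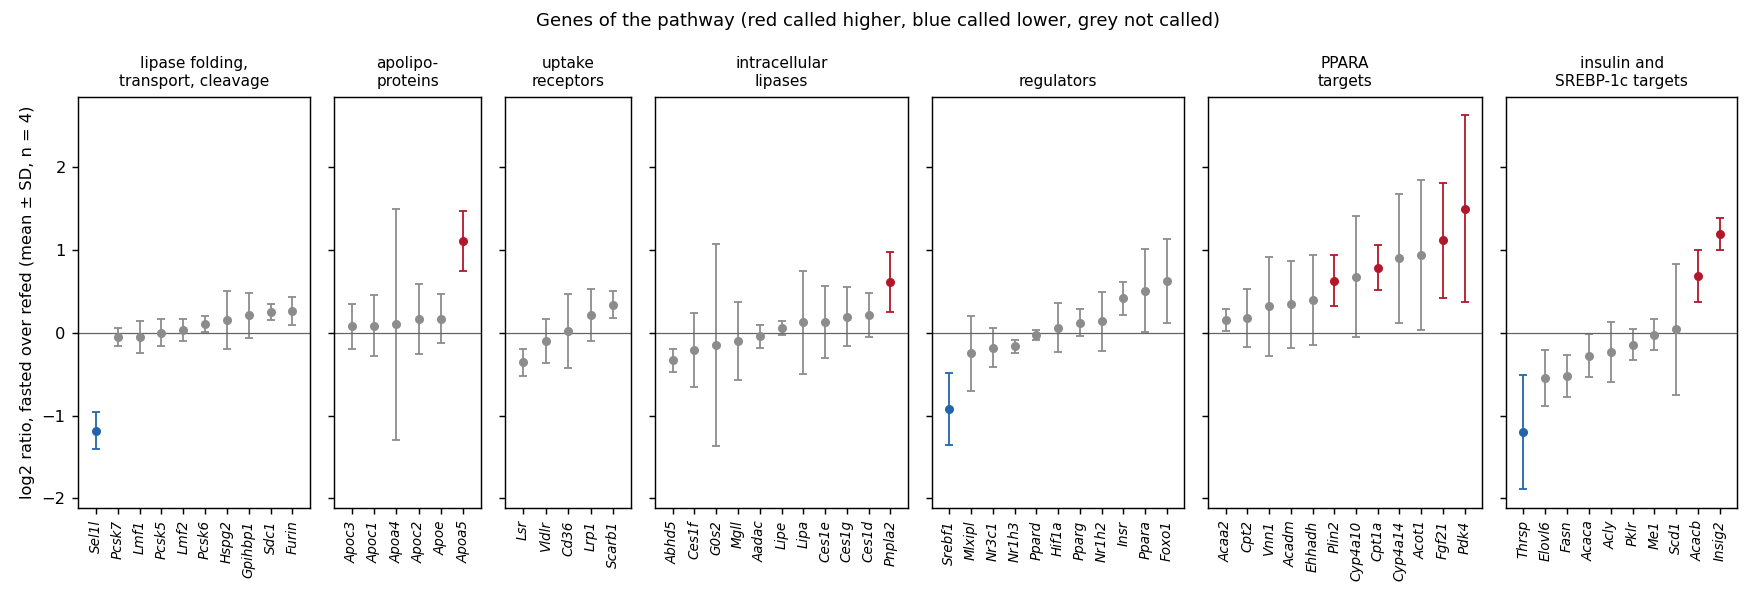
Mean log2 ratio of fasted over re-fed liver with SD bars (n = 4) for measured genes of 7 of the lists, in ascending order within each list, with genes called higher in red, called lower in blue and not called in grey. The PPARA targets shown lie above 0 throughout, whereas the insulin and SREBP-1c targets shown run from Thrsp at -1.20 to Insig2 at 1.19.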

How the data were processed

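Total RNA of individual livers was measured on 4 two-colour arrays, and replicates are separate animals. The authors labelled 200 ng per liver and deposited scanner files with the raw intensity of each spot, its local background intensity and quality flags, and a second table of log2 ratio values, which they had normalized by loess in limma. That table was matched by row number and runs as fasted over re-fed. Its background step is not given in the sources used here.

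Median intensities were read for 44397 spots per array in R 4.3.3. Spots whose local background exceeded 3 times the array median in either channel were left out (55 in all). Background correction used normexp in limma 3.58.1 (offset 50), control spots and flagged outlier spots (197 to 322 per array) were left out, and ratios were normalized by loess with a span of 0.3. No spot was saturated. Median spot brightness was 40 to 75 in red and 44 to 96 in green, against backgrounds of 25 to 35 and 20 to 33, and the number of arrays limits the precision. Probes had to be well above background in all 4 livers of at least 1 condition. Single-channel levels used average intensities brought to a common distribution over the arrays.

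Ratios were tested with lmFit and eBayes, two-sided, with Benjamini-Hochberg adjustment over 19740 probes, and called at an adjusted p under 0.10 and 1.5-fold. These limits are those of the study, which used SAM. Dye was tested as a second term. On simulated data with 200 of 19740 probes changed by 1.5 on the log2 scale, 96% were recovered between conditions, with 1.54% of calls false. Recovery of dye effects as small as those of Lipc and Angptl8 was not tested. Probes were named by accession (26055), symbol or synonym (4125) or the file's own name (9249), with RefSeq names of GRCm38.p6.

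The members, the gene lists and the background limit were chosen with earlier results of these data known. The genes named are the members, the called genes of the lists with a few uncalled examples (the largest changes and the brightest, beside others chosen after their values were seen), the 5 nearest genes of Angptl4 and Angptl8, and Dock6. Some genes that these rules select are not reported here. Alternatives covered background, value source, normalization, filters, flags, dye term, test, fold limit, probe choice, separate channels and leaving out each array.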

Additional observations from a re-analysis of the deposited data

Results flagged for a closer look

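In 2 of the 34 groups of 4 values examined, the lowest or highest value stood apart from the rest by more than Dixon's 95% limit, a limit that chance passes in about 1 of 20 groups. The first was the level of Angptl8 in the re-fed livers, where replicate 1 lay at 13.78 and the other livers at 15.07 to 15.31, a gap of 0.844 of the range. The fasted liver on the same array was also the lowest for Angptl8, at 10.49, and the ratio of that array, at -3.28, lay within the others. The second was the log2 ratio of Sel1l, at -0.85 on replicate 1 while the other arrays gave -1.30 to -1.28, which is 0.964 of the range.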

How the results depend on the processing

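The log2 ratio of every member stayed within 1 SD under all 16 alternatives: 2.72 to 3.09 for Angptl4, -3.26 to -2.83 for Angptl8, -0.039 to 0.18 for Angptl6, -0.29 to 0.073 for Lpl 3484, -0.091 to 0.17 for Lpl 1340 and -0.19 to 0.20 for Lipc. The last 4 ranges include both signs. Staying within 1 SD was fixed in advance for some of the 16 alternatives. Leaving out 1 of 4 arrays cannot move a mean that far, and the filter and flag settings do not alter these ratios.

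Counts depended more on the processing, and the cause was not tested. Probes called higher and lower, 335 and 409 as reported, were 550 and 713 with plain subtraction, 685 and 904 with Agilent's processed signals, 5 and 14 with normexp on all spots, 230 and 635 with median centring, and 929 and 1208 with no fold limit. Pathway genes called higher, 10 as reported, were 1 with normexp on all spots and 5 with median centring. Those called lower, 5 as reported, were 0 with normexp on all spots, under which 1 gene, Insig2, kept its call, and 9 with no fold limit. Probes with a dye effect, 2906 as reported, were 1261, 460 and 550 with normexp on all spots, Agilent's signals and median centring, each with 0 member probes called.

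Leaving out each array in turn gave 203 to 412 probes higher and 251 to 525 lower, with both low values without replicate 3. It gave 4 to 13 pathway genes higher (4 without replicate 2 or 3) and 3 to 5 lower (3 without replicate 3 or 4). For dye it gave 0 to 3 member probes and 205 to 2335 probes, an alternative chosen after seeing the data. Fitting the channels separately, with no replicate block for livers paired on an array, gave 321 and 394 probes and 10 and 4 pathway genes. Precision is limited by 4 arrays, and for Lpl 1340 by its signal near background.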
